A study of Mus musculus with 36 samples.

Results

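The comparison described here is that of long-term hematopoietic stem cells (LT-HSC) from *Il27ra* knockout mice with LT-HSC from heterozygous mice, both after infusion of phosphate-buffered saline (PBS). Its members were chosen by their labels as the 3 knockout and the 3 heterozygous libraries of LT-HSC after PBS, 6 of the 36 libraries in the series. Knockout replicate 2 carried *Slamf1* and *Cd48* at the levels of HPC-1, the CD48-positive progenitor population that was sorted beside LT-HSC, so fold changes and counts of the comparison are given with and without that library.

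The study asked how the receptor of interleukin-27 (IL-27R) acts in abdominal aortic aneurysm and in the stress hematopoiesis that accompanies it. Mice of both genders on the C57BL/6 background all lacked *Apoe* and carried *Il27ra* in intact, heterozygous or homozygous deficient form, with cage mates and littermates as controls. From 8 weeks of age they received a Western diet, for 12 weeks by the legend of the sequencing figure and for 10 or 12 by the methods. Over the last 2 weeks an implanted pump delivered PBS or angiotensin II (Ang II). Total RNA of 5000 cells per library, sorted by flow cytometry from bone marrow, went into a stranded low-input kit that primes at random.

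The knockout group is *Apoe*−/−*Il27ra*−/− and the heterozygous group *Apoe*−/−*Il27ra*+/−, both on the Western diet with PBS for 2 weeks. LT-HSC were gated as Lin−Sca-1+c-kit+CD150+CD48− cells and HPC-1 as Lin−Sca-1+c-kit+CD150−CD48+ cells, which the labels call ST-HSC. The 4 knockout and 4 heterozygous LT-HSC libraries after Ang II, and the 3 and 3 HPC-1 libraries after PBS, have the same genotypes and serve below for comparison. Intact *Il27ra* is represented after PBS by 1 LT-HSC library, so that heterozygous cells are the control here. The labels give no gender, no animal number per library and no batch, and neither labels nor methods say which exons the deficient *Il27ra* allele lacks.

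IL-27 is a heterodimer of the *Il27* and *Ebi3* products and binds a receptor made of the IL-27R alpha chain, encoded by *Il27ra*, and gp130, encoded by *Il6st*, which it shares with the IL-6 family. Binding activates Janus kinases, which phosphorylate STAT factors, and these raise transcription of many of the genes that interferons also induce. In bone marrow, IL-27 is known to act on stem and progenitor cells and to favour their expansion and myeloid differentiation, and LT-HSC are the mostly quiescent, self-renewing cells at the origin of all blood lineages.

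Total expected counts were 2191163, 2560838 and 5271346 in heterozygous replicates 1, 2 and 3 and 2170180, 6806836 and 6578590 in knockout replicates 1, 2 and 3. Both groups thus held shallow and deep libraries, with a range of 2170180 to 6806836 over the 6. Genes with at least 1 count numbered 14931, 26187 and 21285 in the heterozygous and 17253, 18767 and 20694 in the knockout libraries. Heterozygous replicate 2 had the most genes detected at a low total, and 3365 genes had counts in that library alone among the 6, against 73 to 493 in each of the others. All levels below are CPM, counts scaled to library size with TMM factors, for which 1 count is 0.143 to 0.486 CPM in these libraries, and 3 counts were taken as the floor of detection, which covers counting error only.

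The sort separates the cell types by CD150, the product of *Slamf1*, and CD48, the product of *Cd48*. Knockout replicate 2 was singled out beforehand by these transcripts, so their levels describe it and are no separate check of its label. *Slamf1* (chr1:171767127-171801184, plus strand, GRCm38) was at 31.6, 45.01 and 59.96 CPM in heterozygous and 45.8, 2.36 and 44.01 CPM in knockout LT-HSC. *Cd48* (chr1:171682009-171705258, plus strand) was at 0.486, 0.634 and 1.21 CPM in heterozygous and 0, 62.6 and 4.16 CPM in knockout LT-HSC. Knockout replicate 2 was the lowest of the 6 in *Slamf1* and the highest in *Cd48*, while knockout replicates 1 and 3 lay with the heterozygous libraries in *Slamf1* and replicate 3 a little above them in *Cd48*. In HPC-1 after PBS, *Slamf1* was at 1.65, 3.90 and 4.68 CPM in heterozygous and 1.91, 1.85 and 3.74 CPM in knockout libraries, and *Cd48* at 44.01, 72.5 and 60.2 CPM and 60.6, 63.1 and 69.2 CPM. Those are the ranges in which knockout replicate 2 of LT-HSC fell. In bulk RNA, fewer cells of a type and less RNA per cell cannot be told apart, here and in all lists of markers below. The other gate markers overlapped between the groups: *Kit*, which encodes c-kit, was at 1078, 702 and 921 CPM in heterozygous and 1205, 653 and 763 CPM in knockout LT-HSC, and *Ly6a*, which encodes Sca-1, at 6.80, 21.9 and 16.6 and 14.1, 8.86 and 18.2 CPM.

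Across many genes the same library stood apart. A scale was set from the 2676 genes that differed between heterozygous LT-HSC and heterozygous HPC-1 after Ang II (14.9% of 18013 tested, adjusted p under 0.05 in edgeR), with the LT-HSC mean at 1 and the HPC-1 mean at 0. Heterozygous libraries lay at 0.927, 0.997 and 1.06, and knockout libraries at 1.09, 0.208 and 0.930. HPC-1 libraries after PBS lay at 0.179, 0.225 and 0.155 in heterozygous and 0.225, 0.207 and 0.210 in knockout mice, so knockout replicate 2 of LT-HSC sat inside their range. On a scale from intact in place of heterozygous Ang II libraries it lay at 0.182, against at least 0.695 for each of the other 5. Its log2 CPM correlated across genes most closely with HPC-1, with a Pearson r of 0.978 to 0.962 for the 6 nearest libraries, all 6 of them HPC-1. Whether this library holds HPC-1 sorted or labelled as LT-HSC, or LT-HSC with another expression state, was not tested.

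**Figure D1:**
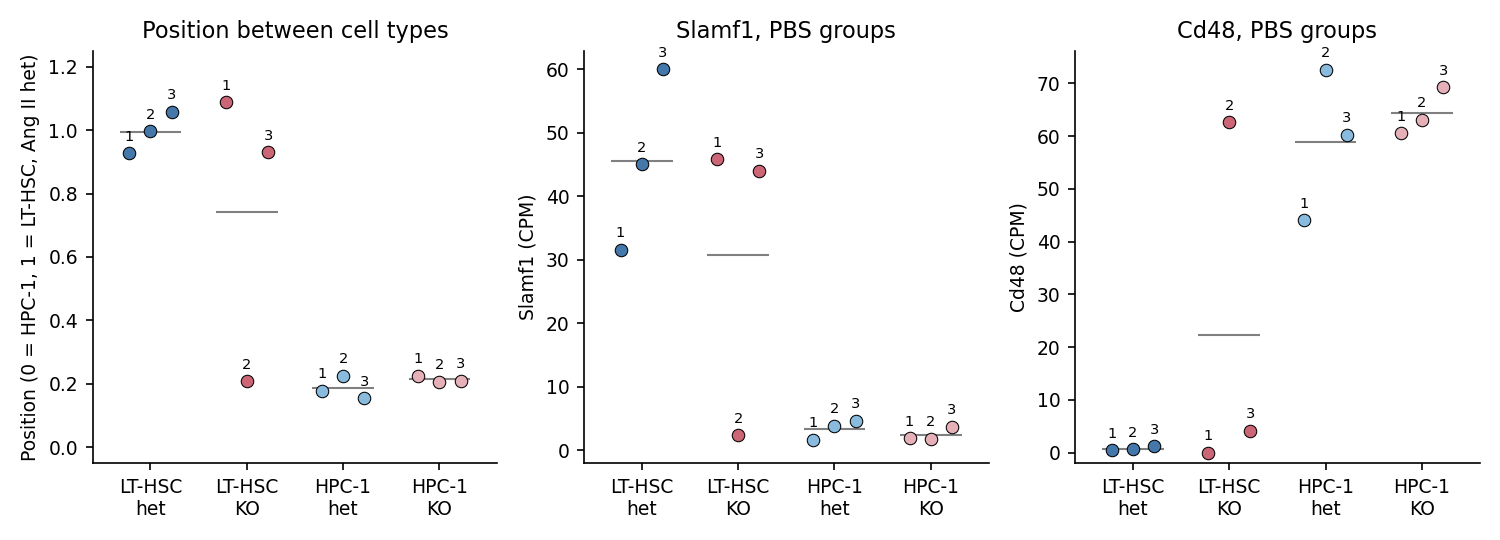
Position of each PBS library between LT-HSC (1) and HPC-1 (0) on the left, and levels of *Slamf1* and *Cd48* in CPM in the middle and on the right, for heterozygous (het) and knockout (KO) libraries; points are libraries with their replicate numbers and lines are group means. Knockout replicate 2 of LT-HSC lies at 0.208 with *Slamf1* at 2.36 CPM and *Cd48* at 62.6 CPM, among the HPC-1 libraries.

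Sex-linked transcripts differed within both groups. *Xist*, the noncoding RNA of the inactive X chromosome, was at 3.40, 4542 and 4539 CPM in heterozygous and 18.4, 4580.00 and 3573 CPM in knockout libraries, and the Y-linked helicase gene *Ddx3y* at 98.1, 0.317 and 0 and 85.2, 0 and 0 CPM. Replicate 1 of each group had high *Ddx3y* and low *Xist*, and replicates 2 and 3 the reverse, so each group had 1 library of the Y-bearing pattern and 2 of the other. Of 5 sex-linked genes, 0 had an unadjusted p under 0.05 in either edgeR fit.

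The main question was which genes differ between knockout and heterozygous LT-HSC without Ang II. With all 6 libraries, 0 of 16365 genes tested (0%) passed an adjusted p of 0.05 in edgeR, and 653 (3.99%) had an unadjusted p under 0.05, of which 265 (1.62%) were higher and 388 (2.37%) lower in knockout cells. Leaving out knockout replicate 2 gave 0 of 16111 genes (0%) at that adjusted p and 231 (1.43%) at an unadjusted p under 0.05, with 103 (0.639%) higher and 128 (0.794%) lower. Leaving out heterozygous replicate 2 in its place also gave 0 genes passing and 231 with an unadjusted p under 0.05, of 14545 tested. DESeq2 counted 525 genes at an unadjusted p under 0.05 with 1 passing, and limma-voom 1082 with 0 passing. With knockout replicate 2 left out these tools counted 248 and 538, with 0 passing in either. Over all genes in edgeR, 7883 were above and 8455 below 0 with all libraries, and 7552 and 8527 without knockout replicate 2. The smallest adjusted p in edgeR was 0.982 with all libraries and 1 without that replicate.

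Genes whose levels did not overlap between the groups were 704 higher (4.30%) and 556 lower (3.40%) in all 3 knockout libraries. Over knockout replicates 1 and 3 they were 1408 (8.74%) and 1160 (7.20%). An unadjusted p under 0.05 in both fits was found for 115 genes, 17.6% of the 653 and 49.8% of the 231, all of them in the same direction, 46 higher and 69 lower. The fits share 5 libraries. The second fit also has only knockout replicates 1 and 3 and a newly computed spread, so these shares cannot be assigned to the omitted library alone.

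Genes that distinguish the cell types made up much of the longer list. Of the 653 genes, 224 (34.3%) were among those that differed between LT-HSC and HPC-1 after Ang II, against 16.2% of all genes tested. All 154 of these that were higher in knockout cells were HPC-1-high and all 70 that were lower were LT-HSC-high. When knockout replicate 2 is left out, 50 of the 231 (21.6%, against 16.3% of all genes) were among them, 7 higher and HPC-1-high, 19 higher and LT-HSC-high, 18 lower and LT-HSC-high, and 6 lower and HPC-1-high. The median log2 fold change of 1359 LT-HSC-high genes was −0.21 with all libraries and 0.09 without the replicate, and that of HPC-1-high genes 0.33 and 0.04. HPC-1-high genes thus lay above LT-HSC-high genes with the library, and slightly below them without it.

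The receptor gene itself came first in the ranking by p. *Il27ra* (ENSMUSG00000005465, chr8:84030294-84042589, minus strand) was at 42.7, 24.1 and 25.6 CPM in heterozygous and 9.42, 6.94 and 16.3 CPM in knockout LT-HSC, with means of 30.8 ± 10.4 and 10.9 ± 4.87 CPM (SD, n = 3 each). All 3 knockout libraries were below all 3 heterozygous libraries, and the transcript was present in each of them. The log2 fold change was −1.48 (SE 0.32, 95% interval −2.14 to −0.81, edgeR unadjusted p 0.000174, adjusted p 0.982). On leaving out knockout replicate 2 it was −1.21 (SE 0.33, interval −1.90 to −0.52, edgeR unadjusted p 0.00147, adjusted p 1.00). Over 22 alternatives in processing the value ran from −1.92 to −0.92 and the adjusted p from 0.0122 to 1. After Ang II, *Il27ra* was at 30.2, 25.5, 27.1 and 32.8 CPM in heterozygous and 16.3, 11.7, 16.2 and 19.3 CPM in knockout LT-HSC, again without overlap, at a log2 fold change of −0.85 (edgeR unadjusted p 0.00519). In HPC-1 after PBS, where levels were lower, they were 15.6, 11.1 and 9.97 CPM and 6.69, 11.1 and 8.35 CPM and overlapped. The lone intact LT-HSC library after PBS had 17.1 CPM, near the upper end of the knockout libraries and below all heterozygous ones.

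The next gene by p lies close to *Il27ra* on chromosome 8. *Adgrl1* (ENSMUSG00000013033, chr8:83900105-83941954, plus strand), which encodes the adhesion G protein-coupled receptor latrophilin-1, ends 88340 bases from *Il27ra*. Its level was 122, 104 and 89.3 CPM in heterozygous and 55.7, 19.3 and 42.1 CPM in knockout LT-HSC. The groups did not overlap, with knockout replicate 2 the lowest. The log2 fold change was −1.44 (SE 0.32, edgeR unadjusted p 0.000277) and −1.11 without that replicate (SE 0.28, edgeR unadjusted p 0.000618), which ranked first there. After Ang II it was at 99.5, 69.6, 139.9 and 116 CPM in heterozygous and 41.8, 40.6, 60.1 and 65.3 CPM in knockout LT-HSC, with a log2 fold change of −1.03 (edgeR unadjusted p 0.00142). There too the highest knockout library was below the lowest heterozygous one. In HPC-1 after PBS it was at 22.8, 30.2 and 25.6 and 17.8, 19.1 and 18.9 CPM, lower than in LT-HSC in both genotypes and without overlap, at −0.49 (edgeR unadjusted p 0.214).

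The neighbours of *Il27ra* on chromosome 8 were looked at as well. Within 5 Mb of *Il27ra*, 107 other genes were tested, with a median log2 fold change of 0.01 and an unadjusted p under 0.05 for 1 higher and 2 lower, against shares of 1.62% and 2.37% over all genes. Without knockout replicate 2 the median over 105 was −0.09, with 70 below 0 (8527 of 16111 over all genes) and *Adgrl1* as the only gene at such a p. The others were *Inpp4b*, a phosphoinositide phosphatase gene at −0.79 with and −0.44 without the replicate, and the zinc finger gene *Zfp330* at 0.46 and 0.31. After Ang II, 3 of the 107 were higher and 5 lower at an unadjusted p under 0.05, against 290 and 136 of 16365 over all genes. *Palm3*, chosen after its values were seen because it ends at the end of *Il27ra* on the other strand, was at 2.43, 9.51 and 4.84 CPM in heterozygous and 3.00, 0.886 and 2.15 CPM in knockout LT-HSC. These levels are low and overlap, at −1.53 (edgeR unadjusted p 0.0758) and −1.16 without the replicate (unadjusted p 0.214). The log2 fold change of *Palm3* was −1.98 after Ang II (edgeR unadjusted p 0.0132) and in the other direction in HPC-1, at 1.254 (unadjusted p 0.280). Of the 10 genes with the smallest p, 3 lie on chromosome 8, namely *Il27ra*, *Adgrl1* and *Psd3*, and 4 without knockout replicate 2, when *Mmp2* joins them. The chromosome, looked at after these positions were seen, held 4.93% of all genes tested and 5.21% of the 653.

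The receptor signals through its gp130 chain, the Janus kinases and the STAT factors. All 20 listed genes of the IL-27 receptor and gp130-JAK-STAT pathway were tested. Their median log2 fold change was 0.01 with all libraries and 0.07 without knockout replicate 2, against −0.02 and −0.03 over all genes. With all libraries 10 were above and 10 below 0, and without the replicate 12 and 8. At an unadjusted p under 0.05 in edgeR, 2 were higher and 2 lower with all libraries (1.62% and 2.37% over all genes). Without the replicate these counts were 0 and 1 (0.639% and 0.794% over all genes). *Il27ra*, the gene that the genotype targets, is itself on the list. It is among the 2 lower with all libraries and is the 1 lower without the replicate. *Il6st*, the gp130 gene, was at 85.5, 80.8 and 95.2 and 117, 126 and 103 CPM, higher in every knockout library than in any heterozygous one, at 0.40 (edgeR unadjusted p 0.0263) and 0.32 without that replicate (unadjusted p 0.0951). *Il6ra*, the IL-6 binding chain, was at 11.2, 17.1 and 17.5 and 12.9, 63.3 and 22.4 CPM and stood out in knockout replicate 2, at 1.11 with it and 0.20 without it. Among abundant members of the list, log2 fold changes were 0.08 for the kinase gene *Jak1*, −0.01 for *Stat3* and −0.13 for the phosphatase gene *Ptpn11*, and 0.22, 0.08 and −0.20 without the replicate.

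Antigen presentation by major histocompatibility complex (MHC) class I is a main target of interferons. The classical heavy chains *H2-K1* and *H2-D1* pair with beta-2 microglobulin, the product of *B2m*, while *H2-Q6* and *H2-Q7* are nonclassical class I genes of the Qa-2 group that are near copies of each other. *H2-Q6* (ENSMUSG00000073409, chr17:35424850-35430055, plus strand) was at 358, 263 and 263 CPM in heterozygous and 175, 148 and 205 CPM in knockout LT-HSC. Every knockout library was below every heterozygous one. The log2 fold change was −0.75 (SE 0.18, edgeR unadjusted p 0.000639, the third by rank) and −0.64 without replicate 2 (SE 0.20, edgeR unadjusted p 0.00418). *H2-Q7* was at 452, 417 and 342 and 188, 189 and 326 CPM, also without overlap, at −0.79 and −0.66. Since the pair shares reads, the split between them is uncertain, and their sum was 809.7, 680.5 and 605 CPM in heterozygous and 362, 337 and 530.2 CPM in knockout LT-HSC. The sum kept the groups apart in LT-HSC after Ang II, at 622, 669.6, 659 and 775 CPM against 317, 245, 458 and 410.2 CPM, and in HPC-1 after PBS, at 454, 478 and 382 against 274, 355 and 274 CPM. For *H2-Q6* the log2 fold change was −0.85 after Ang II (edgeR adjusted p 0.550) and −0.63 in HPC-1 (edgeR adjusted p 1.00), and DESeq2 gave an adjusted p of 0.000995 for it after Ang II.

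Class I presentation also needs peptide transport and the transactivator of the heavy chain genes. Of 17 class I presentation genes, *H2-Q6* and *H2-Q7* included, 3 were lower at an unadjusted p under 0.05 with all libraries (2.37% over all genes) and 3 without knockout replicate 2 (0.794% over all genes), and 0 were higher. With all libraries 12 were below 0 and without the replicate 13, and after Ang II 15 were below 0 with 6 lower at such a p (136 of 16365 over all genes). The list's median was −0.13 and −0.17. *Nlrc5*, the transactivator of class I genes, was at 176, 186 and 150.2 CPM in heterozygous and 108, 120.2 and 141 CPM in knockout cells, without overlap, at −0.47 (edgeR unadjusted p 0.0401) and −0.46 without the replicate (unadjusted p 0.0705). *Tap1*, which encodes a chain of the peptide transporter, was at 149.6, 174 and 158 and 85.7, 208 and 129 CPM. Knockout replicate 2 was the highest of the 6 in *Tap1* and the other knockout libraries the lowest, so the log2 fold change was −0.19 with it and −0.58 without it (edgeR unadjusted p 0.0122), and 0.0497 when replicate 1 was left out instead. *H2-K1* was at 1017, 825 and 1012 and 727, 819 and 925 CPM and *B2m* at 713, 607 and 678 and 569.7, 602 and 650.1 CPM, with log2 fold changes of −0.21 and −0.13, and −0.21 and −0.13 without the replicate.

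Interferon-stimulated genes outside class I gave a mixed picture. Of 31 such genes and interferon receptors, 1 was higher and 3 lower at an unadjusted p under 0.05 (1.62% and 2.37% over all genes), and 1 and 1 without knockout replicate 2 (0.639% and 0.794%), with a median of 0.03 and −0.06. Their summed level was 1786, 1934 and 1829 CPM in heterozygous and 1641, 1732 and 1989 CPM in knockout libraries, which overlap. *Tgtp1* and *Tgtp2* encode T cell-specific GTPases that interferon-gamma induces, and are near copies on chromosome 11. *Tgtp2* was at 183, 311 and 219 CPM in heterozygous and 96.4, 148 and 166 CPM in knockout LT-HSC, without overlap, at −0.80 (edgeR unadjusted p 0.00363) and −0.86 without the replicate (unadjusted p 0.00541). *Tgtp1* was at 168, 140.1 and 91.8 and 57.4, 48.3 and 104 CPM, with knockout replicate 3 above 1 heterozygous library, at −0.93 and −0.72. As reads are shared here too, their sum is the safer value, and it was 351, 451 and 311 CPM in heterozygous and 154, 197 and 269.8 CPM in knockout cells. After Ang II it was 277, 299.8, 278 and 308 against 194, 128, 184 and 193 CPM, so that neither pair of groups overlapped. In HPC-1 after PBS it was 169.7, 240.03 and 303 against 168, 175 and 166 CPM, which overlap. *Gbp7*, a guanylate-binding protein gene, was at 165, 193 and 173 and 146, 108 and 153 CPM and the immunity-related GTPase gene *Iigp1* at 39.8, 96.4 and 55.99 and 35.1, 19.3 and 56.9 CPM, lower on average, without overlap for *Gbp7*. Their log2 fold changes were −0.39 and −0.80 with all libraries and −0.25 and −0.48 without the replicate, and *Iigp1* was at −0.38 without heterozygous replicate 2. *Ifitm1*, an interferon-induced membrane protein gene, went the other way at 44.2, 61.5 and 80.00 CPM in heterozygous and 108, 64.95 and 108 CPM in knockout cells, where knockout replicate 2 lay among the heterozygous libraries, at 0.58 and 0.78 without it (edgeR unadjusted p 0.00680).

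STAT dimers bind the gamma-activated sequence (GAS), and interferon regulatory factors bind a repeat of GAAA. Promoters of RefSeq (GRCm38.p6, 250 bases before to 50 after the start) were searched on both strands for TTCNNNGAA and GAAANNGAAA, which 8.30% and 3.44% of 32851 promoters hold. Of the 31 interferon-list genes, 27 had a promoter in the table, 14 with the first motif, 16 with the second and 8 with both. Of the 17 class I genes, 14 had one, 1 with the first, 4 with the second and 0 with both. The windows around the matches are shown, chosen after the levels were seen, for *Tgtp1* and *Gbp7*, which with *Iigp1* are the 3 list members lower at an unadjusted p under 0.05, and for the near copy *Tgtp2*, at chr11:48992299-48992349 (minus strand), chr11:49064258-49064308 (minus strand) and chr3:142530215-142530307 (plus strand), with the matches in capitals.
Tgtp1: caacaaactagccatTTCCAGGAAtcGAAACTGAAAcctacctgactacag
Tgtp2: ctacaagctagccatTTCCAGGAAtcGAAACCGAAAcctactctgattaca
Gbp7: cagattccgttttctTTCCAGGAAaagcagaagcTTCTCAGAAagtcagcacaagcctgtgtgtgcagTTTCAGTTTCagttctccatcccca
In *Tgtp1* and *Tgtp2* the motifs lie side by side without overlap, and *Gbp7* has 2 matches of the first and 1 of the second. A match is a description of letters, and binding was not measured.

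Genes outside the pathway with the smallest p were named by rule, at a mean of at least 5 CPM and without overlap between groups. Lower in knockout cells was *Nlk*, which encodes Nemo-like kinase, a regulator of Wnt and other signals, at 70.4, 61.2 and 48.9 CPM in heterozygous and 37.7, 31.7 and 35.7 CPM in knockout LT-HSC. Its knockout values were tightly grouped, with a log2 fold change of −0.78 (SE 0.20, edgeR unadjusted p 0.000790) and −0.71 without replicate 2. *Psd3*, an exchange factor gene for the GTPase Arf6, was at 214, 152 and 137 and 117, 57.9 and 91.6 CPM, at −0.92 (edgeR unadjusted p 0.000891) and −0.69. After Ang II *Psd3* was at 189.97, 118, 158 and 127 CPM in heterozygous and 94.7, 76.8, 97.9 and 90.9 CPM in knockout cells, at −0.71 (edgeR unadjusted p 0.00230). *Kcnj5*, which encodes a subunit of an inwardly rectifying potassium channel, was low at 9.71, 19.7 and 8.81 CPM in heterozygous and 1.29, 0 and 4.01 CPM in knockout cells, and after Ang II at 24.04, 7.86, 39.4 and 19.5 and 2.22, 3.88, 1.84 and 3.86 CPM. Its log2 fold change was −2.79, −2.14 without knockout replicate 2, and −2.94 after Ang II (edgeR unadjusted p 0.00381, 0.00391 and 0.000686). The desmosome gene *Dsp* was at 18.5, 18.4 and 9.16 CPM in heterozygous and 3.86, 2.21 and 7.88 CPM in knockout cells, also without overlap, at −1.68 with all libraries and −1.31 without the replicate.

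The rule also named 10 genes that were higher in knockout cells. *Plxnb2*, which encodes the semaphorin receptor plexin B2, was at 78.7, 59.3 and 77.1 CPM in heterozygous and 134, 120.01 and 98.1 CPM in knockout LT-HSC. All knockout libraries were above all heterozygous ones, at 0.71 (SE 0.19, edgeR unadjusted p 0.00137) and 0.69 without replicate 2 (unadjusted p 0.00377). *Mmp2*, the gene of the matrix-degrading gelatinase A, was at 8.26, 5.71 and 7.78 and 17.99, 14.3 and 19.1 CPM, at 1.24 and 1.35. *Xpc*, whose product recognises damaged DNA for excision repair, was at 82.1, 66.2 and 96.2 and 101, 242 and 139 CPM, and *Mpnd*, which encodes a protein with an MPN domain, at 11.7, 14.3 and 14.5 and 18.4, 41.5 and 25.8 CPM. In both of these knockout replicate 2 was by far the highest, and without it the log2 fold change went from 0.98 to 0.56 and from 1.08 to 0.71. The other 6 were the membrane raft gene *Flot1* (0.62), the Wnt coreceptor gene *Lrp5* (0.60), the cytokine receptor chain gene *Il10rb* (1.08), the chromatin remodeling gene *Actr8* (0.82), the fatty acid desaturase gene *Scd2* (0.53) and *Fam107b* (0.55), which without the replicate were at 0.54, 0.44, 0.46, 0.71, 0.34 and 0.39.

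**Figure D2:**
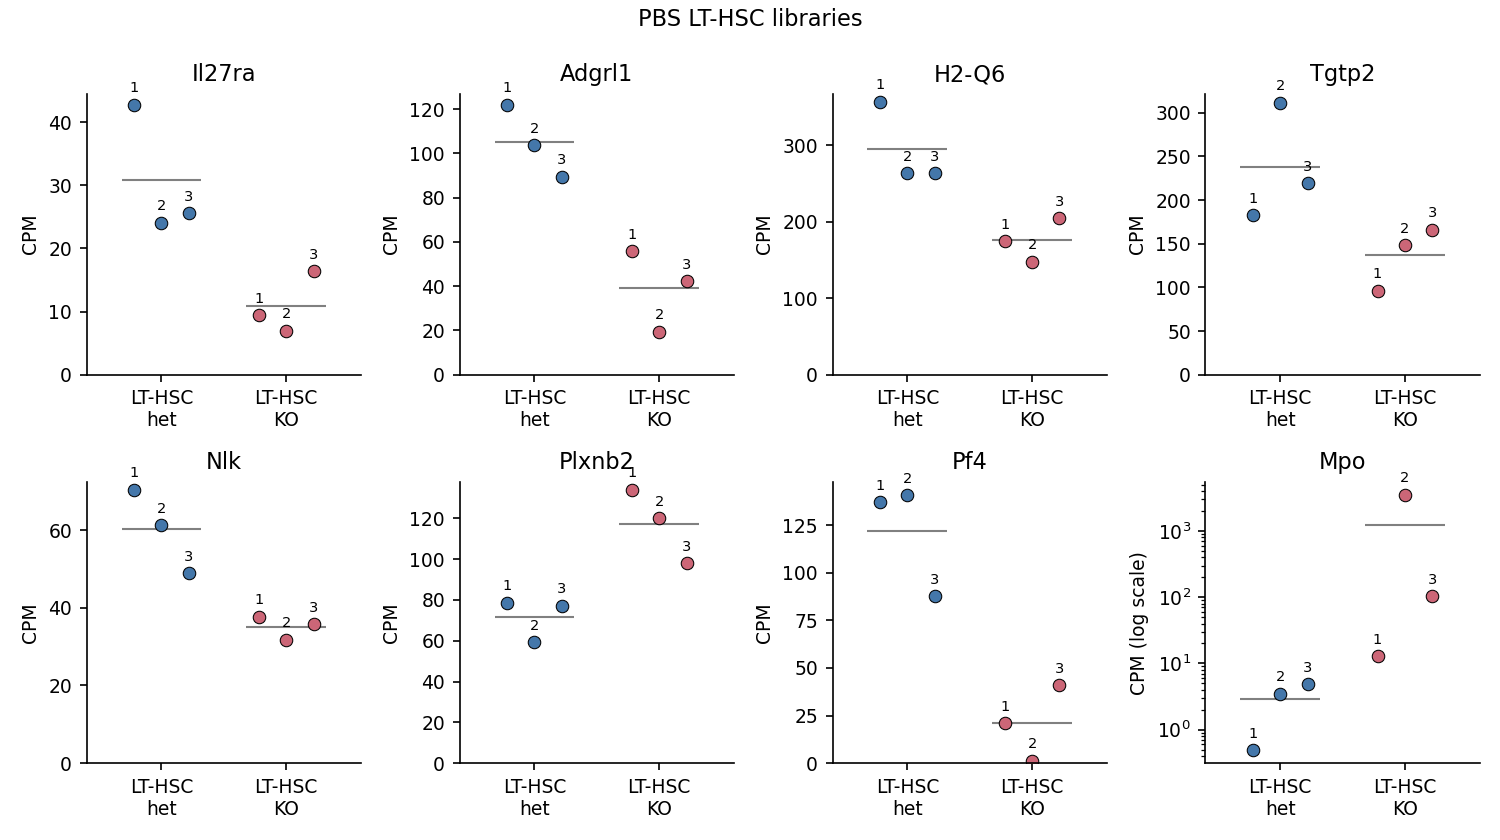
Levels in CPM of 8 genes in the heterozygous (het) and knockout (KO) LT-HSC libraries after PBS; points are libraries with replicate numbers, lines are group means, and *Mpo* has a log axis. *Il27ra*, *Adgrl1*, *H2-Q6*, *Tgtp2*, *Nlk* and *Pf4* are lower in all 3 knockout libraries, *Plxnb2* is higher, and *Mpo* spans 12.9 to 3522 CPM in knockout libraries.

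Without knockout replicate 2 the same rule added other genes. Higher were *Hist2h2aa2*, a histone H2A gene with near-identical copies whose reads cannot be assigned with certainty, at 12.6, 18.7 and 23.3 CPM in heterozygous and 52.3, 43.4 and 56.1 CPM in knockout LT-HSC (1.45 with and 1.54 without the replicate). All 3 knockout libraries were above the heterozygous ones in that gene. Further higher genes were *Zfp608* (0.73), *Pbxip1* (0.71), the secreted serpin gene *Serpinf1* (1.16), the phospholipase gene *Plcg1* (0.69), the small GTPase gene *Rhob* (1.00) and the glutathione transferase gene *Gstm1* (0.87). With all libraries these 6 were at 0.62, 0.58, 0.94, 0.51, 0.71 and 0.60. When knockout replicate 1 was left out instead, *Gstm1* was at 0.17, *Plcg1* at 0.25 and *Serpinf1* at 0.63. *Rhob* and *Pbxip1* were at 0.38 and 0.36 without heterozygous replicate 2. *Knl1*, a kinetochore scaffold gene, was at 172, 158 and 116 CPM in heterozygous and 81.4, 171 and 67.1 CPM in knockout cells, and the mitotic kinesin gene *Kif18b* at 37.4, 35.5 and 26.6 and 12.9, 45.6 and 15.2 CPM. Both were lower in knockout replicates 1 and 3 than in any heterozygous library and near or above the top of the range in replicate 2, at −0.47 and −0.41 with it and −1.01 and −1.23 without it.

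Dividing cells express genes of DNA replication in S phase and of mitosis in G2/M, and LT-HSC divide less than HPC-1. The 39 G2/M genes summed to 4701, 4795 and 3649 CPM in heterozygous, 3500.2, 6623 and 2802 CPM in knockout LT-HSC and 8381, 8899.9 and 7177 CPM in heterozygous HPC-1. Knockout replicates 1 and 3 had the lowest sums of the 6 and replicate 2 the highest. The median log2 fold change was −0.01 with all libraries, with 22 of 39 below 0, and −0.58 without replicate 2, with 37 of 39 below 0. At an unadjusted p under 0.05 there were 0 (2.37% over all genes) and then 1 lower (0.794% over all genes), the spindle gene *Dlgap5* at 68.00, 49.4 and 36.98 CPM in heterozygous and 24.8, 66.7 and 26.4 CPM in knockout cells (edgeR unadjusted p 0.0489 without replicate 2). *Mki67*, the proliferation marker, was the most abundant at 1727, 1565 and 1134 CPM in heterozygous and 1272, 1985 and 927 CPM in knockout cells, with knockout replicate 2 the highest of the 6, replicate 1 inside the heterozygous range and replicate 3 below it. Of 41 S phase genes, 1 was higher at an unadjusted p under 0.05 (1.62% over all genes), and 0 without knockout replicate 2. Their median was 0.19 with 33 above 0, and −0.24 with 39 below 0 without the replicate. Their sums were 4321, 4048 and 3349 CPM in heterozygous and 3341, 6734 and 3392 CPM in knockout libraries, so heterozygous replicate 3 lay with knockout replicates 1 and 3. After Ang II the medians were 0.15 for G2/M and 0.09 for S phase genes. Knockout replicate 2 after Ang II stood apart there, with knockout sums of 2594, 7463, 2950.3 and 3658 CPM for G2/M and 3070.5, 6119, 3546 and 3870.2 CPM for S phase genes. Genes of the same phase are expressed together, so such counts below 0 are not independent observations.

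Cyclin-dependent kinase inhibitors hold cells in quiescence, and *Trp53* (p53) induces *Cdkn1a*, the p21 gene, under stress. Among 22 tested of 23 genes of *Trp53* and its targets, 0 had an unadjusted p under 0.05 with all libraries. Without knockout replicate 2, 1 was higher (0.639% over all genes), the stress gene *Sesn2* at 0.92 (edgeR unadjusted p 0.0443). *Sesn2* was at 0.60 with all libraries and at 0.32 without heterozygous replicate 1. The list's medians were 0.09 and 0.00. *Trp53* was at 127, 109.98 and 129 CPM in heterozygous and 125, 163 and 118 CPM in knockout cells, and *Cdkn1a* at 0, 3.49 and 1.38 and 0.428, 10.5 and 1.72 CPM. Knockout replicate 2 was the highest of the 6 in both, and the other libraries overlapped. Of 7 inhibitor genes 6 were tested, with 0 at an unadjusted p under 0.05 in either fit and medians of 0.14 and 0.21. *Cdkn1c*, the p57 gene that marks quiescent LT-HSC, was at 8.74, 12.04 and 17.3 CPM in heterozygous and 17.1, 0.443 and 16.3 CPM in knockout cells, near 0 in replicate 2 only.

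LT-HSC give rise to multipotent progenitors, which lose stem cell transcripts and gain those of lineage priming. The LT-HSC list includes *Slamf1* and the progenitor list *Cd48*, the transcripts by which knockout replicate 2 was singled out. Of 26 LT-HSC markers, 22 were below 0 with all libraries (median −0.29) and 8 without knockout replicate 2 (median 0.09), and 0 had an unadjusted p under 0.05 in either fit. *Hlf*, a transcription factor of stem cells, was at 369.6, 362 and 577 CPM in heterozygous and 542, 152 and 510.4 CPM in knockout cells, and *Vwf*, the von Willebrand factor gene that marks platelet-biased stem cells, at 471, 547 and 647 and 446, 6.05 and 373 CPM. Knockout replicate 2 was the lowest in both, and replicates 1 and 3 were below the heterozygous range for *Vwf*. Of 19 multipotent progenitor markers, all 19 were above 0 and 12 had an unadjusted p under 0.05 with all libraries (1.62% over all genes higher, list median 3.20). Without the replicate all 18 tested were still above 0, and 0 had such a p (median 1.17). Their sums were 449, 280.5 and 367 CPM in heterozygous and 378, 6747 and 824 CPM in knockout LT-HSC, against 5247, 5576 and 7647 CPM in heterozygous HPC-1. *Mpo*, the myeloperoxidase gene of early myeloid cells, was the most abundant at 0.486, 3.49 and 4.84 CPM in heterozygous and 12.9, 3522 and 104 CPM in knockout cells. It was higher in every knockout library, at 8.49 (SE 2.88, edgeR unadjusted p 0.0130, adjusted p 0.982) and 4.13 without replicate 2 (edgeR unadjusted p 0.105), and was the gene that DESeq2 passed, at an adjusted p of 0.0424 with 23857 counts in that replicate, 723 in knockout replicate 3 and at most 30 in each other library. *Flt3*, the receptor gene of multipotent progenitors, was at 30.6, 20.3 and 32.7 and 11.6, 435 and 80.4 CPM, and *Dntt*, which marks lymphoid priming, at 0, 0.634 and 1.73 and 0, 260.2 and 9.03 CPM. In heterozygous replicate 1 and knockout replicate 1, 6 of the 19 markers had no count, and the sum of knockout replicate 3 was above those of the heterozygous libraries. What part HPC-1 or other progenitors had in the differences of these libraries was not tested.

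Megakaryocyte transcripts are part of the LT-HSC program, since platelet-biased stem cells carry them. All 9 tested of 10 megakaryocyte markers were below 0 in both fits, with medians of −0.97 and −0.64. At an unadjusted p under 0.05, 5 were lower with all libraries and 1 without knockout replicate 2 (background 2.37% and 0.794%). *Pf4*, the platelet factor 4 gene, was at 137, 141 and 87.6 CPM in heterozygous and 20.99, 1.18 and 41.00 CPM in knockout LT-HSC. Every knockout library was below every heterozygous one, at −2.53 (SE 0.98, edgeR unadjusted p 0.0248) and −1.95 without replicate 2 (SE 0.83, edgeR unadjusted p 0.0410). *Itga2b*, which encodes the integrin CD41 and was the most abundant, was at 406, 319 and 255 and 200.5, 80.6 and 219 CPM, also without overlap, at −0.97 and −0.64. The platelet glycoprotein genes *Gp1ba* and *Gp1bb* were at 42.3, 30.4 and 30.2 and 10.7, 11.7 and 12.6 CPM in heterozygous and 27.4, 8.71 and 20.5 and 3.00, 0.591 and 8.03 CPM in knockout cells, and *Treml1* at 8.74, 11.1 and 11.4 and 7.71, 0.443 and 2.44 CPM. These 3 were lower in each knockout library as well, at −0.88, −1.57 and −1.72 with all libraries and −0.53, −1.03 and −1.14 without replicate 2. The list summed to 887, 733 and 653 CPM in heterozygous and 478, 119 and 473 CPM in knockout LT-HSC and to 128, 127 and 119 CPM in heterozygous HPC-1. After Ang II the median was −0.65, with 2 lower at an unadjusted p under 0.05 (136 of 16365 over all genes), *Itga2b* at −0.99 and *Gp1ba* at −0.65 (edgeR unadjusted p 0.00992 and 0.0325).

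Mature blood cells are excluded by the sort, yet their transcripts were present in some libraries. The 12 granulocyte markers summed to 29.1, 34.9 and 126 CPM in heterozygous and 33.8, 317 and 1432 CPM in knockout LT-HSC, with *Ngp* the most abundant at 1.94, 3.49 and 19.9 and 0, 6.79 and 389 CPM. Knockout replicate 3 was highest by far, whereas 6 of the 12 had no count in knockout replicate 1 and 8 in heterozygous replicate 1. All 12 were above 0 in both fits, with medians of 3.47 and 4.01, and 2 (the protease genes *Elane* and *Prtn3*, which the progenitor list also holds) and then 0 were higher at an unadjusted p under 0.05 (1.62% and 0.639% over all genes). The 13 erythroid markers summed to 397, 577 and 1528 and 471, 252 and 3791 CPM, with medians of 1.00 and 1.57 and 0 at an unadjusted p under 0.05 in either fit. *Car2*, a carbonic anhydrase gene, was the most abundant at 346, 469 and 618 and 449, 157 and 502 CPM, and the alpha globin gene *Hba-a2* was at 3.40, 18.7 and 303 and 0.857, 13.6 and 1317 CPM. Replicate 3 of both groups carried the globin transcripts, knockout more than heterozygous. Monocyte and macrophage markers, 10 tested of 11 and led by the lysozyme gene *Lyz2*, summed to 120.5, 99.2 and 133 and 119.9, 201 and 385 CPM, with medians of 0.11 and 0.49. Again knockout replicate 3 had the highest sum. Eosinophil, mast cell and basophil markers (10, led by the eosinophil granule gene *Prg2*) summed to 1.46, 10.1 and 13.3 and 1.29, 47.1 and 130.5 CPM, with 8 at 0 in replicate 1 of each group. All 7 tested eosinophil, mast cell and basophil markers were above 0 in both fits, with medians of 2.355 and 1.36. Of these, 0 had an unadjusted p under 0.05 in either fit. The part of mature blood cells in the genotype difference was not tested.

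Lymphoid and nonhematopoietic markers were low. B lymphoid markers (12, with 5 tested and medians of 0.44 and 0.09) summed to 17.001, 31.4 and 54.4 CPM in heterozygous and 22.3, 139.8 and 111 CPM in knockout libraries, and were led by the immunoglobulin gene *Ighm*. T and NK cell markers (10, with 3 tested and medians of −0.38 and −0.23) summed to 60.2, 44.7 and 52.5 and 26.6, 44.9 and 58.1 CPM, led by the adapter gene *Lat*. Neither list had a gene at an unadjusted p under 0.05. Intestinal epithelium markers (19, led by the keratin gene *Krt18*) summed to 127, 65.3 and 99.7 and 101, 35.3 and 108 CPM, with 14 at 0 in replicate 1 of each group and 3 not detected in any of the 6. Of 16 tested, 14 were below and 0 above 0 with all libraries, and 10 below and 4 above 0 without knockout replicate 2. At an unadjusted p under 0.05, 2 were lower with all libraries (*Cdh17* and *Krt20*, 2.37% over all genes). Without that replicate there were again 2 (*Krt20* and *Zg16*, 0.794% over all genes). *Cdh17*, a cadherin gene, was at 0, 3.17 and 0.691 CPM in heterozygous and 0, 0.148 and 0.287 CPM in knockout cells, *Krt20*, a keratin gene, was detected in heterozygous replicate 2 alone, and *Zg16*, a secretory granule gene, was at 0, 0.634 and 1.21 and 0, 0.295 and 0 CPM. Stromal and endothelial markers (10, led by *Pecam1*) summed to 86.9, 101 and 97.97 and 82.2, 186 and 85.2 CPM. *Pecam1*, an adhesion gene also present on blood progenitors, was at 73.3, 52.6 and 68.6 and 67.7, 184 and 62.1 CPM and stood out in knockout replicate 2 alone, while the chemokine gene *Cxcl12* was at 3.89, 11.7 and 1.56 and 0.857, 0.443 and 0.717 CPM, highest in heterozygous replicate 2. Of 9 tested, *Pecam1* was higher and *Cxcl12* lower at an unadjusted p under 0.05 with all libraries (1.62% and 2.37% over all genes). Without knockout replicate 2 there were 0 of 9. The list's medians were −1.35 and −0.90, with 7 below and 2 above 0 in both fits.

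Remaining lists bear on the diet, the infusion and cell handling. All mice lacked *Apoe* and ate the same diet, and of 24 sterol synthesis and transport genes 21 were above 0 in both fits, with medians of 0.17 and 0.19 and 0 at an unadjusted p under 0.05. Their sums were 1032, 982 and 1073 CPM in heterozygous and 1181, 1122 and 1171 CPM in knockout LT-HSC. All 3 knockout sums were above the heterozygous ones by a small margin. Over all genes, 7883 of 16365 were above 0 with all libraries and 7552 of 16111 without knockout replicate 2. After Ang II, 11 of the 24 sterol genes were above and 13 below 0, with a median of −0.03. Of 10 renin-angiotensin genes 4 were tested, with 0 at an unadjusted p under 0.05, and the Ang II receptor gene *Agtr1a* was at 0, 3.80 and 3.63 CPM in heterozygous and 3.43, 0 and 1.43 CPM in knockout cells, at 0 in 1 library of each group and overlapping. Immediate early genes, which respond to stress and to tissue dissociation, summed to 1183, 364 and 1695 and 1738, 372 and 2353 CPM. Replicate 2 of both groups was the lowest, and the median over 17 tested was 0.32 with all libraries and 0.82 without knockout replicate 2, which leaves the low heterozygous library in place. None of the 17 had an unadjusted p under 0.05 in either edgeR fit, and *Jun* was at 423, 90.01 and 366 and 646, 135 and 601 CPM. Of 12 long noncoding RNAs 10 were in the table, with medians of −0.17 and 0.13, and *Malat1*, the most abundant, was at 20894, 12388 and 17902 and 22237, 9246 and 18143 CPM. The table holds 0 of 13 mitochondrial genes. Of 6 genes on a list of Q-RT-PCR targets, 2 were higher at an unadjusted p under 0.05 (*Mpo* and the G-CSF receptor gene *Csf3r*, against 1.62% over all genes) and 0 without knockout replicate 2, with medians of 0.83 and 0.36. Of these, the oncogene *Myc* was at 138, 205 and 194 and 120.4, 484 and 264 CPM and the cyclin gene *Ccnd1* at 26.2, 41.8 and 50.1 and 50.98, 30.4 and 43.3 CPM.

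**Figure D3:**
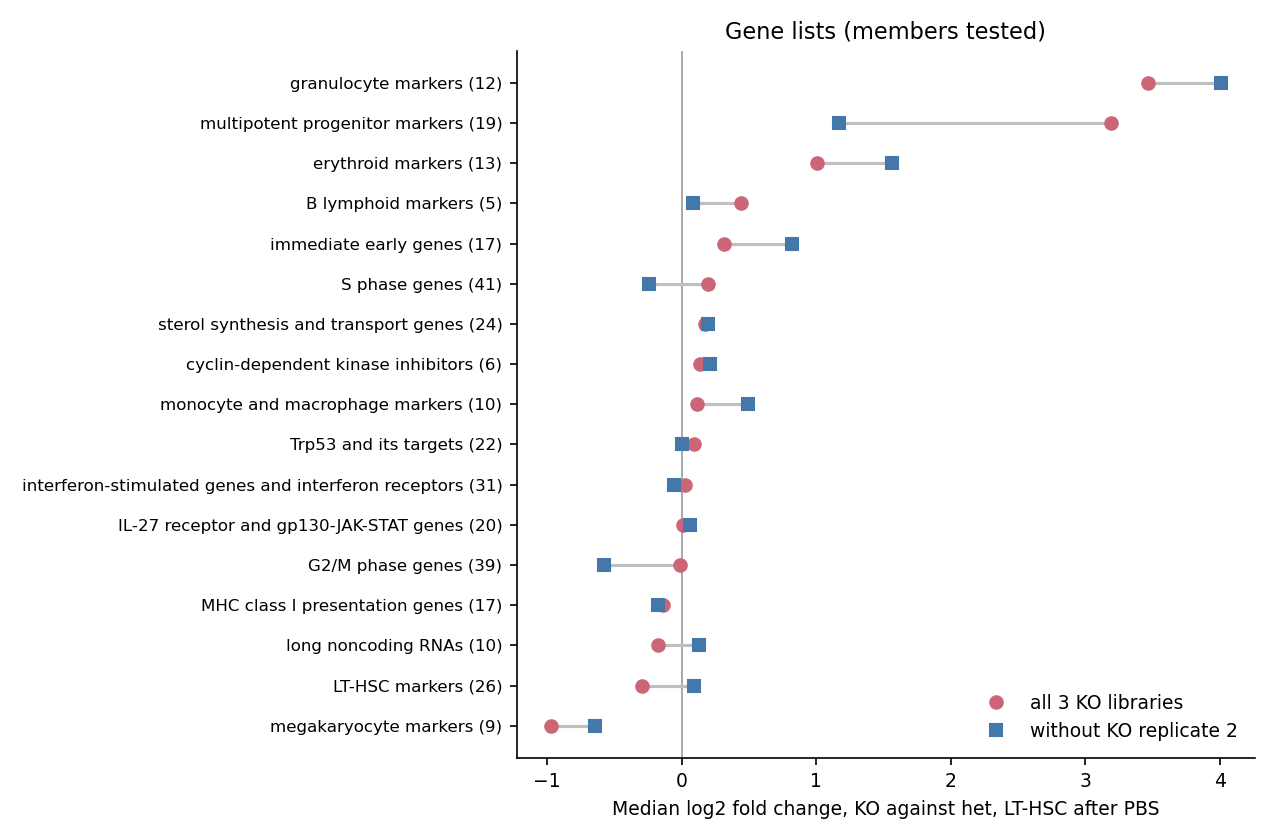
Median log2 fold change of knockout (KO) against heterozygous (het) LT-HSC after PBS for each gene list, with the number of members tested in parentheses; circles use all 3 knockout libraries and squares leave out knockout replicate 2. Multipotent progenitor markers move from 3.20 to 1.17 and G2/M genes from −0.01 to −0.58 when the library is left out, while megakaryocyte markers stay at or below −0.64.

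The same genotypes after Ang II share no library with this comparison and allow a test of whether the difference depends on the infusion. There, 0 of 16365 genes (0%) passed in edgeR and 426 (2.60%) had an unadjusted p under 0.05, while DESeq2 passed 2 (*H2-Q6* and *Gm24924*, named after their values were seen) with 410 at that p, and limma-voom 0 with 629. With PBS knockout replicate 2 left out of the model, DESeq2 passed 8 genes after Ang II with 449 at that p, and limma-voom 0 with 702. For the difference between infusions edgeR passed 0 genes (0%), with 414 (2.53%) at an unadjusted p under 0.05, against 270 in DESeq2 and 729 in limma-voom with 0 passing in either. Without PBS knockout replicate 2, 0 passed (0%) and 236 (1.46%) had such a p in edgeR. An unadjusted p under 0.05 both after PBS and after Ang II was found for 39 genes, 5.97% of the 653 and 9.15% of the 426, and 37 of them had the same direction, 24 lower and 13 higher. Without the replicate they were 22 (9.52% of 231 and 5.16% of 426), 21 in the same direction. Knockout replicate 2 after Ang II lay at 0.576 on the scale from HPC-1 to LT-HSC, against 1.02, 1.02 and 1.04 in the other knockout libraries. After PBS, knockout replicate 2 lay at 0.208 on that scale. Shared genes were not counted without the Ang II library, and its part in them was not tested. Over all genes tested, 53.0% had the same direction in both infusions, and 61.4% of the 653 did. Among those already described, *Il27ra*, *Adgrl1*, *H2-Q6*, *H2-Q7*, *Tgtp1*, *Tgtp2*, *Psd3*, *Kcnj5*, *Itga2b*, *Gp1ba* and *Nlrc5* were lower at an unadjusted p under 0.05 in both, and *Elane*, *Fam107b*, *Ifitm1* and *Mpo* were higher. With PBS knockout replicate 2 left out, *Itga2b*, *Gp1ba*, *Nlrc5*, *Elane* and *Mpo* no longer had such a p after PBS (0.0777, 0.0875, 0.0705, 0.117 and 0.105), and the others did. After Ang II, *Mpo* was at 4.71, 2.99, 2.73 and 0.664 CPM in heterozygous and 9.99, 1109.6, 1.02 and 20.1 CPM in knockout LT-HSC and *Elane* at 0, 0, 0.420 and 0.133 and 0, 152, 0.204 and 1.24 CPM, so knockout replicate 2 of that infusion carried most of both. For *Il27ra*, the unadjusted p for the difference between infusions in edgeR was 0.149, with an adjusted p of 1.

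HPC-1 after PBS shows the same genotypes in another progenitor. In HPC-1, 0 of 18013 genes (0%) passed in edgeR and 302 (1.68%) had an unadjusted p under 0.05, with DESeq2 passing 1 (the eosinophil gene *Prg2*, named after its values were seen) of 337 at that p and limma-voom 0 of 714. For the difference between HPC-1 and LT-HSC edgeR passed 0 genes (0%), with 633 (3.51%) at an unadjusted p under 0.05, and with 2 passing in DESeq2 (*Mpo* and *Pram1*, named after their values were seen) and 0 in limma-voom, which counted 323 and 847 at that p. Without knockout replicate 2 of LT-HSC, 0 of 17956 passed (0%) and 339 (1.89%) had such a p, so the count fell to 339 on leaving out 1 library. Of the 653 genes 7 (1.07%) also had an unadjusted p under 0.05 in HPC-1, which is 2.32% of the 302, and 5 had the same direction. Over all genes tested, 48.1% had the same direction in HPC-1 and LT-HSC, and 45.8% of the 653 did. Without the replicate they were 9 (3.90% of 231 and 2.98% of 302), 8 in the same direction, and 50.4% of all genes and 58.4% of the 231 had the same direction. The multipotent progenitor list had a median of 0.02 between genotypes in HPC-1 and the megakaryocyte list −0.06.

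Whether libraries of the same replicate number resemble each other was looked at, and the deviations of libraries from their group means were correlated across 13040 genes as a description. Between libraries of the same number r was −0.01, −0.05 and 0.35. Knockout replicate 2 was closest to heterozygous replicate 1 (r 0.16) and knockout replicate 1 to heterozygous replicate 2 (r 0.04). Nothing in the labels ties the numbers to a litter, a batch or a day.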

How the data were processed

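The deposited table gives the authors' expected counts of RSEM for 38887 genes in 36 libraries of 12 groups, and 0 values in it are not whole. The submitters' processing notes name Bowtie2 and RSEM 1.2.31 with mm10, whereas the study's methods name STAR and another RSEM release, so which aligner made the table is not known. Symbols and coordinates came from GENCODE M21 by Ensembl identifier, which named 37570 genes with 99.6% of counts. The labels were used for all groups, and members and gene lists were chosen with earlier results of these data known.

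Genes were kept by filterByExpr, scaled by TMM and tested by the quasi-likelihood F test of edgeR 4.0.16 with the robust option (R 4.3.3), in a model of 17 LT-HSC libraries in 6 groups. HPC-1, the difference between cell types and all CPM used the 36 libraries together. P-values were adjusted by Benjamini and Hochberg at 5%. Without knockout replicate 2, filter, factors and dispersion were computed again. Log2 CPM used a prior count of 2. DESeq2 1.42.0 and limma 3.58.1 (voom with sample quality weights) were alternatives, as were upper-quartile scaling, other filters, the compared groups only, a replicate block, a Y-linked covariate, a test without the robust option, thinning to the lowest total, and leaving out each library. The edgeR fit was also tested on simulated data, and no result given here rests on that test.

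Genes named in the text are *Il27ra* and the sort markers, the 10 higher and the 10 lower genes with the smallest p with all libraries and again without knockout replicate 2 (mean of at least 5 CPM, no overlap between groups, no provisional symbol), genes within 5 Mb of *Il27ra* at an unadjusted p under 0.05, and from each list the 4 most abundant members with any at an unadjusted p under 0.05. Lists covered the receptor pathway, interferon and MHC class I genes, cell types, cell cycle, *Trp53*, sterols, renin-angiotensin, immediate early, noncoding, mitochondrial, Q-RT-PCR target and sex-linked genes. Not every gene that the rule allows is printed.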

Additional observations from a re-analysis of the deposited data

Results flagged for a closer look

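For several quantities in each of the 4 groups of 4 libraries, 32 sets of values in all, the gap between the most extreme library and its nearest neighbour was compared with the whole range of the set. By chance about 1 in 20 groups is marked in this way, and sets from the same libraries are not independent. In all, 4 values stood apart, all in LT-HSC after Ang II, which serve here for comparison only. In knockout replicate 2 the position between LT-HSC and HPC-1 was 0.576, against 1.02, 1.02 and 1.04 in the other knockout libraries. The same library had *Cd48* at 8.20 CPM, against 0.409, 0.826 and 1.11 CPM, and *Mpo* at 1109.6 CPM, against 1.02, 9.99 and 20.1 CPM. In heterozygous replicate 4, *H2-Q7* was at 475 CPM, against 337, 354 and 358 CPM. These groups hold other libraries than those after PBS, whose groups of 3 were not looked at in this way. Why they stood apart was not tested.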

How the results depend on the processing

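In edgeR 0 genes passed between knockout and heterozygous LT-HSC after PBS, and 0 to 0 on leaving out each library in turn. DESeq2 gave 1 (*Mpo*, log2 fold change 8.59). Dropping the filter on low counts gave 193, of which 77 had most of their counts in knockout replicate 2, and moved the median of all genes to −0.22. Without that replicate and without the filter there were 3 (*Gm12184*, *Hist2h2aa2* and *Adgrl1*), an alternative that, like those with the Y-linked covariate or without heterozygous replicate 2 that also leave out this replicate, was chosen after seeing the data. All other alternatives gave 0.

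The 653 genes at an unadjusted p under 0.05 became 1686 without the filter and 337 at a mean count of at least 10, where more and fewer genes are tested. They became 331 with the compared groups only and 1082 with limma-voom, and on leaving out each library 231 to 917. Without knockout replicate 2 the count was 248 with DESeq2, 405 with the compared groups only and 247 with the Y-linked covariate, and it was 121 without heterozygous replicate 2 as well. Causes were not tested. With the replicate block it was 481, with 0 passing and *Il27ra* at −1.49.

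*Il27ra* was lower under every alternative run. Without the filter its log2 fold change was −1.46 at an adjusted p of 0.0122, over a range of 0.0122 to 1 in the alternatives, and on leaving out each library it ran from −1.92 to −1.19. For the difference between infusions, 0 genes passed except for 71 without the filter, and for that between cell types 0 except for 2 with DESeq2 and 99 without the filter, with 0 to 0 on leaving out each library for both.

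Of 1453 values for 67 named genes, 1402 kept their direction and side of the threshold, 24 passed it and 27 changed direction. Leaving out 1 library moved the log2 fold change of 44 of the 67 by over 1.5 times. *Cebpa* was at −0.32 with limma-voom without knockout replicate 2. The log2 fold change of *Pecam1* (0.70 with all libraries) was −0.0347 with DESeq2, −0.0326 with limma-voom, −0.0352 with the compared groups only, −0.0172 with the Y-linked covariate, −0.0091 without the filter and −0.12 without heterozygous replicate 2, all without knockout replicate 2, and leaving out each library gave −0.0039 to 0.97. That of *Kit* (−0.0419 with all libraries) was 0.1032 with DESeq2, 0.067 with limma-voom, 0.0981 with the compared groups only, 0.0354 with the Y-linked covariate and 0.1231 without the filter, again all without this replicate, and −0.37 to 0.127 on leaving out each library. That of *Ly6a* (−0.16) was 0.0746 with limma-voom and all libraries. When this replicate was left out it was 0.0355 with DESeq2, 0.0943 with limma-voom, 0.0333 with the compared groups only, 0.1132 with the Y-linked covariate, 0.0599 without the filter and 0.44 without heterozygous replicate 2, and leaving out each library gave −0.50 to 0.187. *Slamf1* (−0.61) was at 0.1161 with the Y-linked covariate without knockout replicate 2, and leaving out each library gave −1.01 to −0.0407. *Tap1* (−0.19) ran from −0.58 to 0.0497 on leaving out each library. The causes were not tested. Of 528 list medians 81 moved by more than the spread between replicates, and of 12 positions 7 did. The shallowest library held 2170180 counts, where 1 count is 0.428 CPM, which limits what can be said of genes at a few CPM.

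Several limits apply throughout. Each group has 3 libraries, or 2 knockout libraries once replicate 2 is left out, and the other groups of the model inform the spread. Gene totals do not show which exons of *Il27ra* the counts came from. Whether the libraries are littermates, and on which days they were sorted, is not in the labels, so genotype cannot be told apart from such factors. Intact LT-HSC after PBS have 1 library, so the difference between heterozygous and intact cells was not tested. Near copies share reads, and a p that misses the threshold does not show that levels did not differ.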
